A study of Mus musculus with 18 samples.

Results

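Described here are 10 genes of Toll-like receptor sensing in mouse kidney cortex: the receptor genes Tlr1, Tlr2, Tlr3, Tlr4, Tlr7, Tlr8, Tlr9 and Tlr13, the adaptor gene Myd88 and the receptor chaperone gene Unc93b1. They were taken by symbol from the deposited expression values, and all 10 were present among 15035 genes. The study measured kidney cortex RNA by sequencing in 18 mice, in 6 groups of 3, and its title names combination therapy of lupus nephritis as the subject. The healthy group was of Mrl/Mpj wild type genotype and received vehicle. The other 5 groups were Mrl/lpr mice, which lack functional Fas in all cells and develop lymphoproliferation with immune complex nephritis. These mice received vehicle, MMF (mycophenolate mofetil, an inhibitor of guanine nucleotide synthesis), FK506 (tacrolimus, a calcineurin inhibitor), prednisone (a glucocorticoid) or a treatment labelled Multi-target. No dose, age or duration is given in the labels, nor the make-up of the Multi-target treatment.

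Toll-like receptors recognise microbial molecules and, in lupus, nucleic acids of the host. TLR1, TLR2 and TLR4 act at the cell surface on lipoproteins and lipopolysaccharide, whereas TLR3, TLR7, TLR8, TLR9 and TLR13 act in endosomes on RNA or DNA and depend on UNC93B1 to leave the endoplasmic reticulum. All of these receptors except TLR3 signal through MyD88 to NF-kB and interferon regulatory factors, and in lupus-prone mice loss of Tlr7 is known to ease disease and loss of Tlr9 to worsen it. In kidney, macrophages and dendritic cells carry many of these receptors, and tubular cells carry some of them.

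On GRCm38 with the GENCODE M21 annotation, the surface receptor genes lie apart, Tlr1 at chr5:64924679-64933563 and Tlr2 at chr3:83836272-83841767 on the minus strand and Tlr4 at chr4:66827584-66930284 on the plus strand. Tlr7 (chrX:167304929-167330558) and Tlr8 (chrX:167242696-167264329) are neighbours on the minus strand of chromosome X, which also holds Tlr13 (chrX:106143204-106160493, plus strand). Tlr3 lies at chr8:45395665-45411080 on the minus strand and Tlr9 at chr9:106222598-106226883 on the plus strand. Myd88 is at chr9:119335934-119341411 on the minus strand and Unc93b1 at chr19:3935186-3949340 on the plus strand. All 10 are annotated as protein-coding.

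Levels are given on the deposited log2 scale, and 2 to the power of a level is called normalised reads. For 7 of the 10 genes this was a whole number of reads scaled to the depth of the deepest library. It was not for Tlr1, Tlr7 and Unc93b1, of which Tlr1 and Unc93b1 matched a mean of log2 values over several entries. Libraries held between 28939845 and 41066953 recovered reads. Proximal tubule markers, 10 of 10 measured, summed to between 665608 and 764696 normalised reads in healthy mice and to between 202528 and 510591 in vehicle mice, the lowest being vehicle mouse 36. Fas stood at 6.63 to 6.85 in healthy mice and at 7.73 to 8.28 in Mrl/lpr mice. The lpr allele is an intronic insertion that can leave reads in other exons, so Fas does not check the genotype labels. Vehicle mouse 17 had the adipocyte gene Adipoq at 11.30 and FK506 mouse 12 the steroidogenic gene Cyp11a1 at 11.37, far above the other mice. Differences were tested with limma over all genes with Benjamini-Hochberg adjustment, and a gene is called at an adjusted p below 0.05. The labels name no batch, and p-values measure the spread between these mice.

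In diseased kidney the 10 genes were all higher than in healthy kidney. Vehicle-treated Mrl/lpr mice exceeded healthy mice without overlap for 10 of 10 genes, where 32.6% of all genes did so. All 10 were called higher, where 15.7% of all genes were called higher. The median difference was 2.10 on the log2 scale, against 0.09 for all genes. Differences ran from 0.89 for Tlr3 to 5.69 for Tlr8. In whole cortex, more cells of a type and more RNA per cell cannot be told apart.

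**Figure D1:**
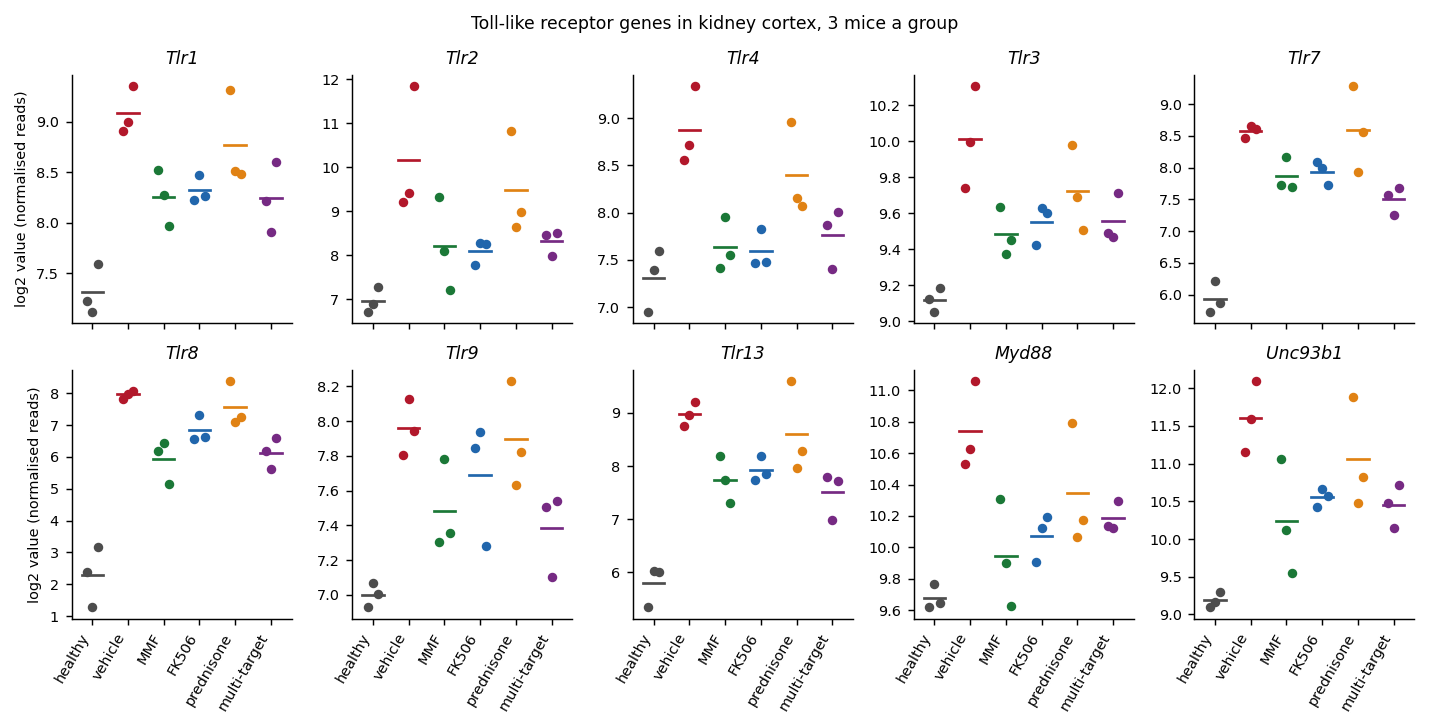
Log2 level (vertical axis, normalised reads) of the 10 genes in each of 18 mice by group (horizontal axis). Points are mice, bars are means of 3 mice, and each panel has its own vertical scale. Vehicle mice lie above healthy mice for every gene, and vehicle mouse 36 and prednisone mouse 23 stand apart for Tlr2, at 11.85 and 10.83.

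Among the cell surface receptors, Tlr2, a receptor for bacterial lipoproteins, had the largest difference. Its level was 6.72, 6.90 and 7.28 in healthy mice 1, 2 and 3, and 9.21, 9.41 and 11.85 in vehicle mice 7, 17 and 36. Mouse 36 was far above the other vehicle mice, and the groups did not overlap. The log2 difference was 3.19 ± 0.67 (SE, n = 3 against 3, limma adjusted p = 0.0042), and across the fits that left out one mouse or changed the processing it ran from 2.35 to 3.66 and was called in each. Tlr1, which pairs with TLR2 to bind triacylated lipoproteins, was at 7.23, 7.12 and 7.59 in healthy mice and at 8.90, 8.996 and 9.35 in vehicle mice. The spread within each group was small against the gap, and Tlr1 rose by 1.77 ± 0.24 (limma adjusted p = 0.000161). Tlr1 and Tlr6 share near-identical stretches, so the division of reads between them is uncertain. Tlr4, the lipopolysaccharide receptor, was at 6.95, 7.39 and 7.59 in healthy mice and at 8.55, 8.71 and 9.34 in vehicle mice. It rose by 1.56 ± 0.27 (limma adjusted p = 0.00116), with every vehicle mouse above every healthy mouse.

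Tlr8, an endosomal receptor closely related to TLR7, was nearly absent from healthy cortex. Healthy mice 1, 2 and 3 gave 5, 2 and 8 reads, and the 2 reads of mouse 2 have an exact 95% Poisson interval of 0.242 to 7.23. Vehicle mice gave 216, 199 and 241 reads before scaling for depth. On the log2 scale these were 2.38, 1.27 and 3.18 in healthy mice and 7.83, 7.98 and 8.07 in vehicle mice, so the vehicle mice differed little from each other. The ratio of summed reads, corrected for depth, was 44.4 with a 95% interval of 26.7 to 79.8 that covers counting error only. The fitted log2 difference was 5.69 ± 0.47 (limma adjusted p = 5.97e-06).

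The other X-linked receptors followed the same direction. Tlr7, a receptor for single-stranded RNA, was at 5.73, 6.21 and 5.86 in healthy mice and at 8.47, 8.66 and 8.60 in vehicle mice. It rose by 2.64 ± 0.26 (limma adjusted p = 1.69e-05), and the 3 vehicle mice lay close together. How several entries were summarised into the deposited Tlr7 value is unknown. Tlr13, which in mouse recognises bacterial ribosomal RNA, was at 5.34, 6.03 and 6.02 in healthy mice and at 8.76, 8.97 and 9.20 in vehicle mice. It rose by 3.18 ± 0.36 (limma adjusted p = 5.39e-05), with no overlap.

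The remaining endosomal receptors differed less. Tlr9, a receptor for unmethylated CpG DNA, was at 6.93, 7.07 and 7.004 in healthy mice and at 7.81, 8.13 and 7.94 in vehicle mice, a rise of 0.96 ± 0.21 (limma adjusted p = 0.00485). Tlr3, a receptor for double-stranded RNA that signals through TRIF, was at 9.13, 9.05 and 9.18 in healthy mice and at 9.74, 9.997 and 10.31 in vehicle mice, a rise of 0.89 ± 0.15 (limma adjusted p = 0.000727). Neither gene overlapped between the groups. The within-group SD was 0.07 in healthy and 0.16 in vehicle mice for Tlr9, and 0.07 and 0.28 for Tlr3. A predicted antisense gene, Gm45542, overlaps Tlr3, and no source says whether counting used strand.

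The shared partners of the receptors rose as well. Myd88 was at 9.62, 9.77 and 9.65 in healthy mice and at 10.53, 10.62 and 11.06 in vehicle mice, a rise of 1.06 ± 0.20 (limma adjusted p = 0.00176). Its annotated span overlaps Slc22a14 and Acaa1a, so some reads could belong to either. Unc93b1 was at 9.09, 9.17 and 9.30 in healthy mice and at 11.15, 11.59 and 12.09 in vehicle mice, a rise of 2.42 ± 0.36 (limma adjusted p = 0.000404). The rise of the chaperone gene was thus larger than that of the adaptor gene in these mice, but the difference between the genes was not tested.

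Per length of annotated exon, the order of the genes changed between healthy and diseased cortex. Order was taken on normalised reads per kb of exon for the 7 genes whose values were whole reads in all 18 libraries. In healthy mice Myd88 stood at 319 ± 17.8 reads per kb (SD, n = 3), followed by Tlr3 at 107.0 ± 4.84, Tlr2 at 42.0 ± 8.64, Tlr9 at 36.8 ± 1.77, Tlr4 at 29.1 ± 6.31, Tlr13 at 13.2 ± 3.27 and Tlr8 at 1.55 ± 0.935. Only the neighbours Tlr2 and Tlr9 overlapped in that order. In vehicle mice Myd88 was at 671 ± 135 reads per kb, Tlr2 at 549 ± 585, Tlr3 at 201 ± 39.8 and Tlr13 at 118 ± 17.9. Tlr4, Tlr9 and Tlr8 followed at 86.6 ± 26.3, 71.8 ± 8.06 and 69.8 ± 5.79 reads per kb. Of the neighbours in diseased cortex, only Tlr3 and Tlr13 did not overlap, so Tlr8, the lowest gene in healthy cortex, could no longer be separated from Tlr9 and Tlr4.

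Upstream sequence is shown for 3 of the genes, Tlr8 for its low level in healthy cortex, Tlr9 as a receptor with a smaller difference, and Myd88 as the shared adaptor. RefSeq entries on GRCm38.p6 exist here for 7 of the 10 genes, and the entries were searched on both strands of the 250 bases before the annotated start for an interferon response element (GAAA, any 2 bases, GAAA), a PU.1 core (GAGGAAG), an NF-kB site (GGG, any 2 bases, TTTCC) and a TATA box (TATAAA). Capitals mark matches, and in Tlr8 and Myd88 the TATA letters read on both strands overlap. The windows are chrX:167264330-167264579 on the minus strand for Tlr8, chr9:106222348-106222597 on the plus strand for Tlr9, and chr9:119340019-119340268 on the minus strand for Myd88, whose last bases lie in an exon of another annotation. The whole Myd88 window lies inside the GENCODE span of the gene given above, so the start used is that of the RefSeq entry only.
Tlr8: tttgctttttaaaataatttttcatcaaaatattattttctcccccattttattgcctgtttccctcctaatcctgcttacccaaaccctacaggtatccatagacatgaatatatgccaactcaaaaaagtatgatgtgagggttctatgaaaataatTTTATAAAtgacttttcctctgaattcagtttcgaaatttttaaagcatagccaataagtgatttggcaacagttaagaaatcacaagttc
Tlr9: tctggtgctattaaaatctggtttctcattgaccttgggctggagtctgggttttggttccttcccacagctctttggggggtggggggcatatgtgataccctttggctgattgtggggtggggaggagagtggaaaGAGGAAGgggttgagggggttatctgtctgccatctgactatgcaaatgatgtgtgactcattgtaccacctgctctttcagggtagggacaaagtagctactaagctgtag
Myd88: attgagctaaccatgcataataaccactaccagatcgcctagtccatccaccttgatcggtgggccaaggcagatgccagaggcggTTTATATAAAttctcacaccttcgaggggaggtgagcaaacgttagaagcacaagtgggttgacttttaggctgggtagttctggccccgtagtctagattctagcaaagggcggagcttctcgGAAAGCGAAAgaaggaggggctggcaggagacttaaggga

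The Myd88 window held an interferon response element starting 40 bases before the start, which 2.98% of 32851 promoters hold, and the TATA letters were held by 12.4% of promoters. A PU.1 core, held by 10.6% of promoters, was found in Tlr9 at 112 bases, in Tlr13 at 83 bases and in Tlr1 at 23 bases before the start. Tlr1 has 2 entries with different starts. The core was in the window chr5:64933559-64933808, and the other, chr5:64932700-64932949, held none. The NF-kB letters, held by 1.41% of promoters, were found in Tlr3 at 211 bases before the start. The Tlr3 window, as that of Myd88, lies inside the GENCODE span given above. All distances are counted from the RefSeq start. These are matches of letters in the window and say nothing of binding. The Tlr8 window had 31.2% GC and 1 CpG, against a median of 52.4% GC and 6 CpG over all promoters.

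MMF-treated mice had lower mean levels than vehicle mice for all 10 genes, with a median log2 difference of -1.03, where the median of all genes was -0.05. Called lower were 2 of 10, Tlr4 and Tlr8, where 1.45% of all genes were called lower, and 9 of 10 did not overlap with vehicle, where 12.4% of all genes did so on the lower side. Tlr4 was at 7.42, 7.95 and 7.55 in MMF mice 1, 14 and 27, below all vehicle mice, and fell by 1.23 ± 0.27 (limma adjusted p = 0.0468). Tlr8 was at 6.18, 6.44 and 5.16, also below all vehicle mice, and fell by 2.04 ± 0.47 (limma adjusted p = 0.0486). Both calls lie just under the threshold: 0 of 10 genes were called without vehicle mouse 17, without vehicle mouse 36, without MMF mouse 14 or without MMF mouse 27, and 8 of 10 without vehicle mouse 7 or without MMF mouse 1. The share of all genes called moved as well, from 1.58% to 12.9% without vehicle mouse 7 and to 36.8% without MMF mouse 1. The other 8 genes had adjusted p from 0.0524 for Myd88 to 0.141 for Tlr9. Tlr2 was at 9.33, 8.10 and 7.20, and MMF mouse 1 reached into the range of vehicle mice.

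FK506-treated mice also had lower mean levels than vehicle mice for all 10 genes, with a median log2 difference of -0.91 and 9 of 10 genes not overlapping, where 12.2% of all genes were lower without overlap. None was called by limma, nor was any of the 15035 genes (0%), while 9 of the 10 and 2987 of all genes had an unadjusted p below 0.05. Tlr4 was at 7.47, 7.83 and 7.48 in FK506 mice 3, 12 and 24, a difference of -1.28 ± 0.27 (limma adjusted p = 0.171). Tlr8 was at 6.55, 7.31 and 6.63, a difference of -1.13 ± 0.47 (limma adjusted p = 0.208). Tlr9 was at 7.84, 7.94 and 7.28 and was the gene that overlapped with vehicle, with a difference of -0.27 ± 0.21.

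Prednisone-treated mice overlapped with vehicle mice for all 10 genes. None was lower without overlap, where 1.3% of all genes were, and none was called by limma, again with 0 called of all genes (0%). At an unadjusted p below 0.05 there were 0 of the 10 genes and 474 of all genes. The median difference was -0.37. Tlr8 was at 8.37, 7.11 and 7.27 in prednisone mice 23, 29 and 35, a difference of -0.38 with a 95% interval of -1.38 to 0.62. Tlr7 was at 9.29, 7.93 and 8.57, a difference of 0.02 with a 95% interval of -0.54 to 0.58, which turned to -0.33 without mouse 23. That mouse was the highest of the group for all 10 genes.

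Multi-target mice lay below all vehicle mice for 10 of 10 genes, where 9.54% of all genes were lower without overlap. The median difference was -1.09 and none of the 10 was called by limma, with 0 called of all genes (0%), while all 10 and 2341 of all genes had an unadjusted p below 0.05. Tlr7 was at 7.57, 7.26 and 7.67 in Multi-target mice 6, 18 and 39, a difference of -1.08 ± 0.26 (limma adjusted p = 0.163). Tlr8 was at 6.2004, 5.61 and 6.59, a difference of -1.83 ± 0.47, and Tlr13 was at 7.79, 6.99 and 7.73, a difference of -1.47 ± 0.36 (limma adjusted p = 0.166 and 0.163). All treatment differences are taken from the same 3 vehicle mice.

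**Figure D2:**
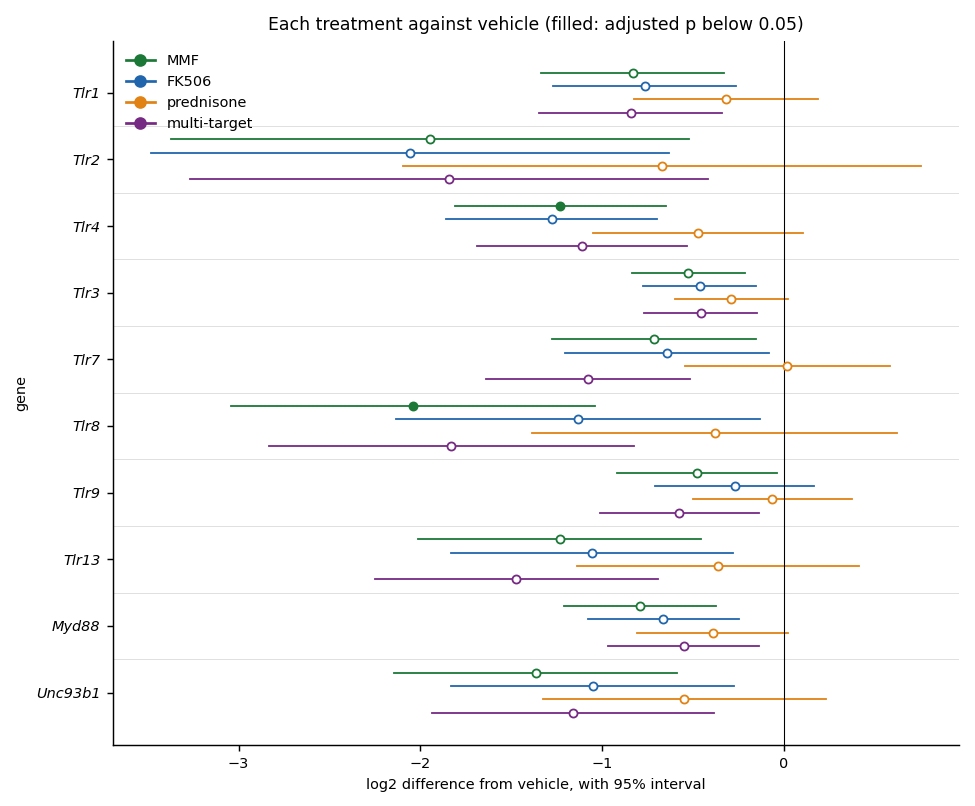
Log2 difference from vehicle (horizontal axis) for each gene (vertical axis) in the 4 treatments, with 95% intervals from limma; filled points have an adjusted p below 0.05. Only Tlr4 and Tlr8 under MMF are filled, and the prednisone intervals all include 0.

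Set directly against each single drug, the Multi-target group differed by less than the test could call. None of the 10 genes was called by limma against MMF, FK506 or prednisone, and 0 of all genes were called in each of these comparisons (0%). Against MMF, 0 of the 10 had an unadjusted p below 0.05 (1126 of all genes). Against FK506 it was also 0 (61 of all genes), and against prednisone it was 6 (503 of all genes). Tlr7 was the gene whose Multi-target mice lay below all MMF mice and all FK506 mice. The share of all genes that did so was not computed. The gap was narrow, with the highest Multi-target mouse at 7.67 and the lowest MMF and FK506 mice at 7.70 and 7.72. Its differences were -0.36 (95% interval -0.93 to 0.20) against MMF and -0.43 (-0.99 to 0.13) against FK506. Against prednisone Tlr7 differed by -1.10 (-1.66 to -0.53, limma adjusted p = 0.993) and Tlr8 by -1.45 (-2.45 to -0.44). These intervals do not show that the treatments act alike.

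Measured against healthy mice, the treated groups still stood higher for a set of receptors. In MMF mice 4 of 10 genes were called higher, where 9.56% of all genes were, namely Tlr1, Tlr7, Tlr8 and Tlr13. FK506 mice had 5 of 10 called higher, where 5.73% of all genes were, the same 4 and Unc93b1. Multi-target mice had 4 of 10 called higher, where 5.33% of all genes were, again Tlr1, Tlr7, Tlr8 and Tlr13, and Unc93b1 missed the threshold at a limma adjusted p of 0.0501. In prednisone mice all 10 were called higher, where 13.4% of all genes were, and 5 of 10 without prednisone mouse 23. The FK506 count was 3 without healthy mouse 1, without healthy mouse 2, without FK506 mouse 3, without FK506 mouse 12, or without both vehicle mouse 17 and FK506 mouse 12. The Multi-target count was 2 without healthy mouse 1 or without Multi-target mouse 6. In these fits the share of all genes called in either direction fell as well. It went from 7.27% to between 1.42% and 2.41% for FK506. For Multi-target it went from 6.98% to 1.48% and 2.14%, and for prednisone without mouse 23 from 16.7% to 6.89%. Tlr1 lost its call in some of the fits that left out a mouse in the MMF, FK506 and Multi-target groups, as did Tlr13 in the Multi-target group, while Tlr7 and Tlr8 were called in each fit that tested them. Unc93b1 under FK506 was called in 3 of 11 alternatives, with limma adjusted p up to 0.157, and Myd88 under prednisone in 4 of 10, with limma adjusted p up to 0.155.

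**Figure D3:**
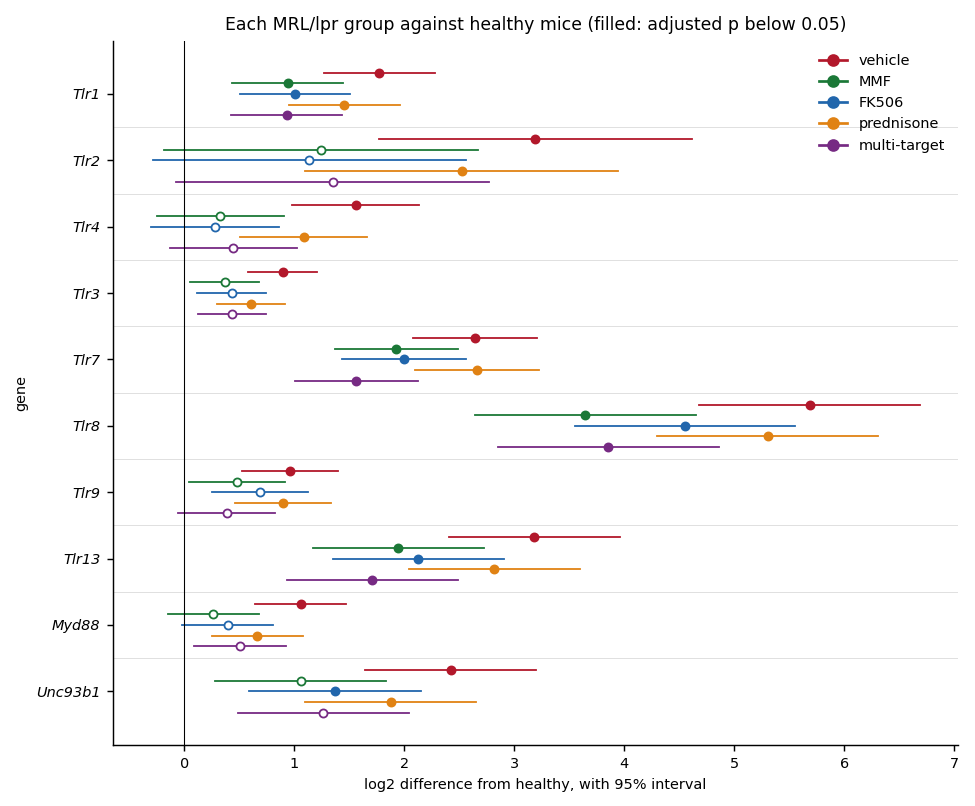
Log2 difference from healthy mice (horizontal axis) for each gene (vertical axis) in vehicle and in the 4 treatments, with 95% intervals from limma; filled points have an adjusted p below 0.05. Tlr7, Tlr8, Tlr13 and Tlr1 are filled in all 5 groups, and Tlr4 is filled for vehicle and prednisone.

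The largest of these differences were in Tlr8, at 3.65 ± 0.47 in MMF mice, 4.55 ± 0.47 in FK506 mice, 5.30 ± 0.47 in prednisone mice and 3.86 ± 0.47 in Multi-target mice. Each of the 12 treated mice stood above all healthy mice, and prednisone mouse 23, at 8.37, also above all vehicle mice. Tlr4 differed from healthy by 0.33 ± 0.27 under MMF, 0.28 ± 0.27 under FK506 and 0.45 ± 0.27 under Multi-target, with limma adjusted p of 0.407, 0.558 and 0.328. Tlr4 overlapped with healthy mice in these 3 groups. Over the alternatives its difference ran from 0.15 to 0.47 under MMF, from 0.10 to 0.42 under FK506 and from 0.27 to 0.62 under Multi-target.

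Expressed as the share of the log2 disease difference that treated mice still showed, the genes were spread widely. A share of a log2 difference is not a share of normalised reads. Tlr8 averaged 5.57 normalised reads in healthy mice, 250 in vehicle mice, 117 in FK506 mice and 72.9 in Multi-target mice. Its shares also rest on the 2 to 8 reads of healthy mice. The share in MMF mice ran from 21.03% for Tlr4 to 73.0% for Tlr7, and in FK506 mice from 17.9% for Tlr4 to 80.1% for Tlr8. In prednisone mice it ran from 62.9% for Myd88 to 100.7% for Tlr7, and in Multi-target mice from 28.7% for Tlr4 to 67.8% for Tlr8. The medians over the 10 genes were 46.9%, 56.7%, 80.5% and 50.4%. These shares use the same healthy and vehicle mice in every group and are a description without a test, and the low shares of Tlr4 rest on the differences from healthy whose ranges are given above.

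Spread between mice of a group was unequal among the genes. Tlr2 had a pooled within-group SD of 0.91 on the log2 scale, Tlr8 0.62, Unc93b1 0.49 and Tlr13 0.48, and Tlr3 was the steadiest at 0.18, where the median gene stood at 0.22. Vehicle mouse 36 and prednisone mouse 23 were the highest Tlr2 mice of their groups by a wide margin.

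Markers of several other cell types also differed between the groups, and not all of them followed the 10 genes. Beside the counts of markers called in disease, 15.7% of all genes were called higher and 6.76% lower. Of 11 macrophage markers measured out of 12 listed, 9 were called higher in vehicle than in healthy mice, and Mertk was below 0 at -0.39 ± 0.22. The markers summed to between 8647 and 9490 normalised reads in healthy mice, 28607 and 61770 in vehicle mice, 10547 and 25236 in MMF mice, 16156 and 22429 in FK506 mice, 20750 and 54215 in prednisone mice, and 15436 and 19723 in Multi-target mice. None of the 11 was under 10 reads in every mouse of a group. For T cell markers, 6 of 7 measured were called higher in disease. Their sums ran from 1899 to 2124 in healthy mice, 3046 to 6088 in vehicle mice, 1982 to 3528 in MMF mice, 3046 to 3377 in FK506 mice, 2584 to 4583 in prednisone mice and 2352 to 3256 in Multi-target mice. B and plasma cell markers had 5 of 6 measured called higher in disease. Their sums ran from 728 to 801 in healthy mice and from 1441 to 3510 in vehicle mice. They ran from 1256 to 1436 in MMF, 1301 to 2103 in FK506, 1345 to 2177 in prednisone and 1138 to 1521 in Multi-target mice. Dendritic cell markers had 4 of 7 called higher (786 to 909 against 1335 to 2281). Plasmacytoid dendritic cell markers, 6 measured of 8 listed, had 3 called higher (2374 to 2403 against 4883 to 12896). Over the 18 libraries Bst2 ran from 429 to 8867 recovered reads and Tcf4 from 1110 to 1971. The other measured plasmacytoid markers reached 273 at most, so the plasmacytoid sums moved largely with Bst2. In MMF, FK506, prednisone and Multi-target mice, dendritic cell sums were 727 to 1206, 844 to 1234, 935 to 1677 and 754 to 1464. In the same order, plasmacytoid sums were 3136 to 6324, 3957 to 5081, 3910 to 8553 and 4046 to 6683. Neutrophil markers had 2 of 6 called higher (321 to 387 against 842 to 1434), with S100a8, Retnlg and Camp under 10 reads in every healthy mouse. Neutrophil sums ran from 829 to 1851 in MMF mice and 648 to 2000 in FK506 mice, reaching above all vehicle mice. They ran from 788 to 1214 in prednisone mice and 580 to 861 in Multi-target mice. Endothelial markers had 0 of 8 called by limma, with 1 at an unadjusted p below 0.05, and of the proximal tubule markers 3 of 10 were called lower and all 10 were below 0. Their part in the results was not tested.

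The genes were set against the mean log2 level of the 11 macrophage markers in the same library. Unc93b1 stood 0.41 above that mean in healthy mice and 0.19 above it in vehicle mice, and between 0.09 and 0.23 above it in the treated groups. Tlr7 stood at -2.84 in both healthy and vehicle mice, with single vehicle mice from -3.23 to -2.58. Its mean was -2.15 in MMF, -2.44 in FK506, -2.37 in prednisone and -2.80 in Multi-target mice. Tlr8 moved from -6.50 in healthy mice to -3.45 in vehicle mice, and Tlr13 from -2.98 to -2.44. Tlr2 moved from -1.81 to -1.26, with single vehicle mice from -1.96 to 0.02. The remaining genes went the other way. Tlr3 went from 0.35 to -1.40, Myd88 from 0.91 to -0.68, Tlr9 from -1.78 to -3.46, Tlr4 from -1.46 to -2.55 and Tlr1 from -1.46 to -2.33. Thus the 10 genes did not keep a single ratio to the macrophage markers.

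**Figure D4:**
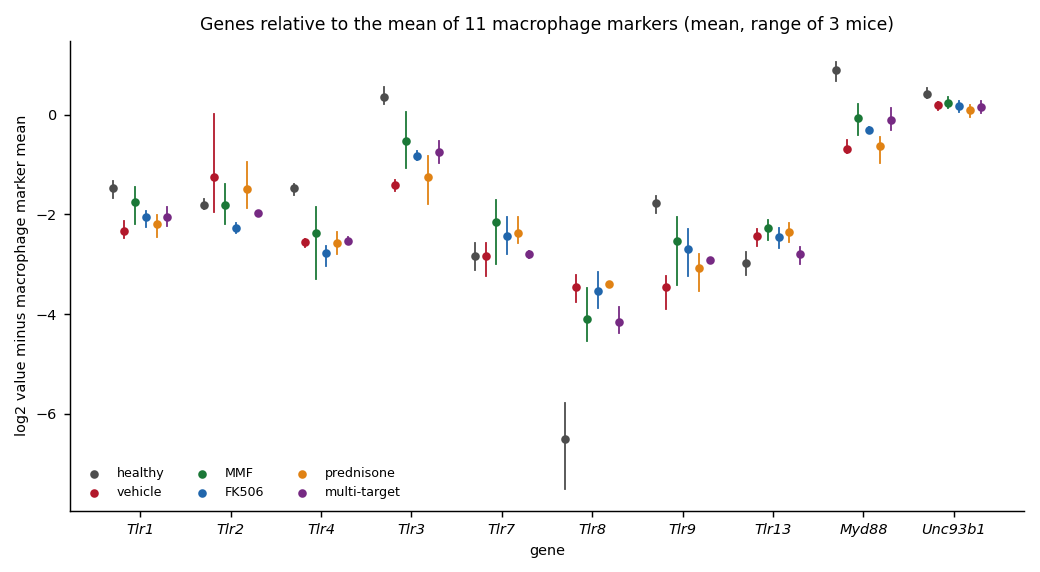
Log2 level of each gene minus the mean log2 level of 11 macrophage markers in the same library (vertical axis) for the 10 genes (horizontal axis), by group; points are means and lines the range of 3 mice. Tlr8 lies lowest in healthy mice, at -6.50, and Unc93b1 stays between 0.09 and 0.41 in all 6 groups.

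Genes whose pattern over the 18 libraries was most like each member were found as the smallest root mean square difference of log2 levels after centring, among genes that are not members. Unc93b1 was close to Hmha1 (0.15) and Ppp1r18 (0.15), and Tlr13 was nearest to Lilrb4 (0.22), Cybb (0.23) and Lair1 (0.25). Tlr7 was nearest to Sla (0.27), Pla2g7 (0.29) and Clec4a2 (0.29), and Tlr1 to Vav1 (0.15). Tlr8, which varied more around its own mean (1.93) than the other members, was nearest to Ctss (0.61). Tlr2 was nearest to Vcam1 (0.27), Tlr4 to Cep170 (0.20), Tlr3 to Wdfy4 (0.10), Tlr9 to Fyn (0.14) and Myd88 to Cst3 (0.10). Among the members themselves, Myd88 and Tlr3 were nearest, at 0.15. The measure follows the size of a gene's change as well as its shape, and the libraries share depth and group.

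Other genes of the pathway, 64 measured of 67 listed, moved less uniformly. In disease 27 were called higher and 4 lower, where 15.7% of all genes were called higher and 6.76% lower. Of the other receptors, Cd180, a relative of TLR4 on B cells and macrophages, rose by 2.62 ± 0.58 (limma adjusted p = 0.00574) and Tlr6, the partner of TLR2 for diacylated lipoproteins, rose by 1.58 ± 0.28 (0.00123). Tlr11 and Tlr12, mouse receptors for profilin, were not called, at 0.54 ± 0.40 and -0.37 ± 0.41, and Tlr5 was not analysed here. Tlr12 was above 10.9 in every healthy mouse.

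Coreceptors and processing enzymes held some of the larger differences. Fcgr3, an activating Fc receptor that can deliver immune complexes to endosomes, rose by 3.48 ± 0.40, Ly86, the partner of CD180, by 3.15 ± 0.49, and Cd14, a lipopolysaccharide coreceptor, by 2.42 ± 0.62. Ctss, a protease of the endosome, rose by 4.74 ± 0.48, Slc15a3, an endolysosomal peptide transporter, by 2.76 ± 0.44, and Ctsb by 0.73 ± 0.22. In the coreceptor list 4 of 7 measured genes were called higher, and in the trafficking and processing list 4 of 10. Named here are the 3 largest called rises of each list, so not every called gene is named. The genes of both lists outside the called ones did not pass the test.

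Downstream of MyD88 the list of adaptors and kinases had 4 of 18 called higher and 2 lower, where 15.7% and 6.76% of all genes were. Pik3ap1 rose by 1.83 ± 0.33, Btk, a kinase of B cells and myeloid cells, by 1.68 ± 0.27 and Ikbke by 1.59 ± 0.38. Chuk fell by 0.37 ± 0.13 and Irak1, a kinase recruited by MyD88, fell by 0.31 ± 0.10. Among transcription factors 5 of 9 were called higher, and Irf7, the factor behind interferon alpha transcription, rose by 3.27 ± 0.79, Irf8 by 1.58 ± 0.30 and Rel by 1.18 ± 0.27. Of the negative regulators 5 of 10 were called higher: Tnfaip3 by 2.01 ± 0.52, Inpp5d by 1.78 ± 0.24 and Irak3, an inhibitory relative of IRAK1, by 1.60 ± 0.25. All of these calls are limma calls over the 15035 genes.

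In the interleukin receptor family that also signals through MyD88, 3 of 6 genes were called higher and 2 lower. Il18rap rose by 0.99 ± 0.28, Il18r1 by 0.91 ± 0.15 and Il1r1 by 0.89 ± 0.18. Il1rl2 fell by 1.10 ± 0.28 and Il1rap, a shared accessory chain, fell by 0.44 ± 0.15. Under MMF 5 pathway genes were called lower than vehicle, with log2 differences of -2.47 ± 0.58 for Cd180, -1.73 ± 0.40 for Fcgr3, -1.79 ± 0.38 for Ikbke, -1.26 ± 0.27 for Btk and -1.56 ± 0.33 for Pik3ap1 (limma adjusted p = 0.0459 to 0.0486), where 1.45% of all genes were called lower. All 5 calls were lost, with 0 of all genes called, in a fit of the 2 groups alone, after quantile normalisation, and on leaving out any one of MMF mice 14 and 27 and vehicle mice 17 and 36. None of the 64 was called against vehicle by limma under FK506, prednisone or Multi-target. At an unadjusted p below 0.05 there were 21, 2 and 26 of the 64, beside 2987, 474 and 2341 of all 15035 genes.

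**Figure D5:**
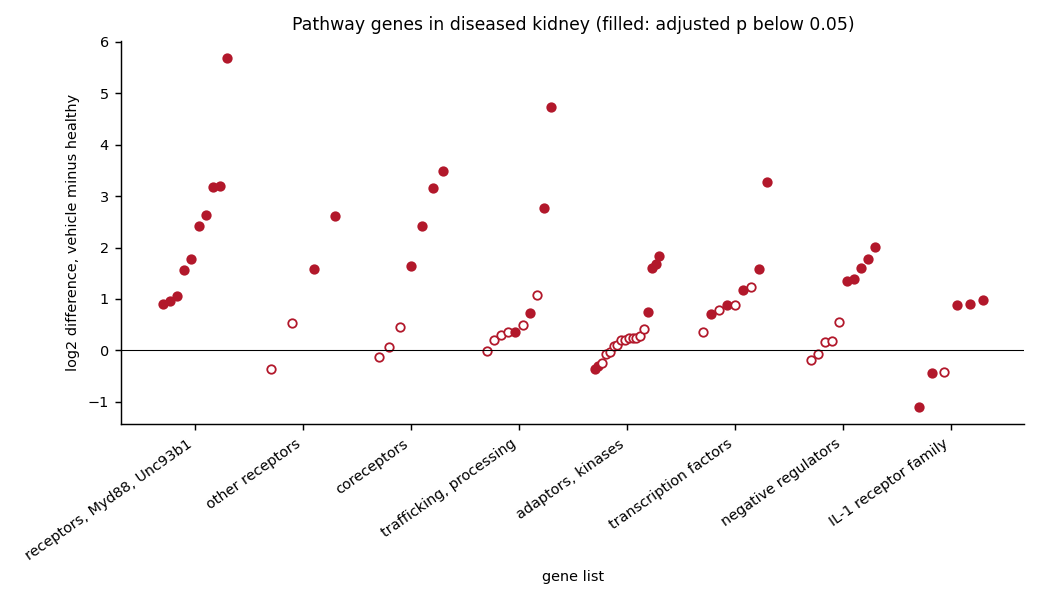
Log2 difference of vehicle minus healthy mice (vertical axis) for the 10 genes and the 7 lists of pathway genes (horizontal axis). Each point is a gene and filled points have a limma adjusted p below 0.05. All points of the first list are filled and above 0.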

How the data were processed

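Kidney cortex RNA from 18 mice was sequenced, in 6 groups of 3. Per the labels' protocols, flash-frozen tissue gave column-purified total RNA for TruSeq libraries. Limma and mm10 are named without versions, per the submitters' processing notes, and no aligner or annotation is stated in the labels. The authors deposited log2 values per gene symbol. From the values, 2 to the power of the deposited log2 value times 1 factor per library was whole within 0.001 reads for 76.1% to 77.2% of values under 1000 reads. Tlr1 and Unc93b1 matched a mean of log2 values over several entries, and Tlr7 followed no rule found. No count test was run, since a share of values was not whole.

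The log2 values were fitted in limma 3.58.1 (R 4.3.3) as group means on 18 libraries together (residual degrees of freedom 12), with a mean-dependent prior variance and Benjamini-Hochberg adjustment over 15035 genes at 0.05, in 12 comparisons. The fit was tested on simulated data. Python 3.11.15 was used for the other steps. Alternatives were fits of 2 groups alone, quantile normalisation, leaving out the 25% of genes with the lowest mean, a pseudocount of 1, leaving out vehicle mouse 17 with FK506 mouse 12, and leaving out each mouse. Groups follow the genotype and treatment labels, and mouse numbers name mice. Members, marker lists and pathway lists were chosen with earlier results of these data known. Genes named follow a rule: all members, other receptors, and up to 3 largest called rises and falls per list, with the genes of nearest pattern. Adipoq, Cyp11a1, Mertk, Fas, Bst2 and Tcf4 were chosen outside it. A result on 1 further gene of near pattern is not reported here. Intervals on reads cover counting error only.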

Additional observations from a re-analysis of the deposited data

How the results depend on the processing

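The 10 genes were called higher in disease under all alternatives that kept them. Leaving out the 25% of genes with the lowest mean kept 5 of the 10. This gave a count of 5 in disease, where 19.7% of all genes were called in either direction. The number called lower under MMF was 0 in a fit of the 2 groups alone, after quantile normalisation and after the filter on low genes. It was also 0 without vehicle mouse 17 and FK506 mouse 12, and 0 to 8 when 1 mouse was left out. The share of all genes called in these fits was 0%, 0%, 0.248% and 0%, in the same order, and 0% to 36.8% when 1 mouse was left out. Against healthy mice the filter gave 1 for MMF, 2 for FK506, 5 for prednisone and 1 for Multi-target, where 5 genes were no longer tested. After the filter, 16.6%, 5.37%, 15% and 5.53% of all genes were called in either direction, in the same order. A fit of 2 groups alone gave 9 for FK506 and 8 for Multi-target. The share of all genes called in either direction was then 24.4% and 21.5%. Leaving out vehicle mouse 17 and FK506 mouse 12 gave 3 for FK506, where that share was 1.42%. Leaving out 1 mouse gave 3 to 5 for MMF, 3 to 5 for FK506, 5 to 10 for prednisone and 2 to 4 for Multi-target, and 10 to 10 for disease. The share of all genes called ran from 3.24% to 38.6% for MMF and from 1.59% to 7.73% for FK506. It ran from 6.89% to 19.7% for prednisone, 1.48% to 8.6% for Multi-target and 9.91% to 26.8% for disease. The cause was not tested beyond the genes and mice that each alternative removed.

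For single genes in the 9 comparisons with vehicle or healthy mice, 836 of 915 alternatives kept direction and side of the threshold, 22 gained a call, 51 lost one and 6 turned sign. These 6 were differences of prednisone from vehicle: Tlr2 was 0.18 without vehicle mouse 36 (range -1.34 to 0.18 over the mice left out), Tlr7 was -0.04 without vehicle mouse 7 and -0.33 without prednisone mouse 23 (range -0.33 to 0.35), and Tlr9 was 0.021 without vehicle mouse 17, 0.021 without vehicle mouse 17 and FK506 mouse 12, and 0.067 without prednisone mouse 29 (range -0.23 to 0.067). In the comparisons of Multi-target with single drugs, where no gene was called, differences turned sign under some alternative for 8 of 10 genes against MMF, 3 against FK506 and 1 against prednisone. Medians over the 10 genes under leaving out 1 mouse ran from 1.91 to 2.26 in disease, -1.13 to -0.85 for MMF, -1.01 to -0.72 for FK506, -0.69 to -0.21 for prednisone and -1.20 to -0.90 for Multi-target against vehicle. Depth limits Tlr8 in healthy mice, at 2 to 8 reads. No paired analysis was possible because the mouse numbers pair no mice across groups.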

Other observations

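The gap between Tlr7 and Tlr4, chosen after its values were seen, differed between the groups. Tlr7 minus Tlr4 on the log2 scale was -1.22, -1.18 and -1.73 in healthy mice and -0.09, -0.05 and -0.74 in vehicle mice. It was 0.31, 0.23 and 0.14 in MMF mice and 0.62, 0.16 and 0.25 in FK506 mice. Prednisone mice had 0.33, -0.22 and 0.50, and Multi-target mice -0.30, -0.15 and -0.33. Every MMF and FK506 mouse was above 0 and every Multi-target mouse was below 0. These differences are not per length, so only their change between groups can be read, and it was not tested.

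Tlr12 stood between 10.60 and 11.22 in the other libraries but at 8.92 and 9.51 in MMF mice 14 and 27, at 9.97 in vehicle mouse 36 and at 10.10 in prednisone mouse 35. Its difference under MMF was -0.91 ± 0.41 (limma adjusted p = 0.158).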
